A study of Tribolium castaneum with 183 samples.

Results

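Differences among full-sib families were described in the Hot-Dry environment of an RNA-seq study of the red flour beetle *Tribolium castaneum*. The females were selected by their label: all 43 Hot-Dry females entered, beside 47 in Control, 48 in Dry and 45 in Hot, and each was assigned to 1 of 12 families by the first number of her name. There were 4 females in each of 7 families and 3 in each of the other 5. All belonged to the strain Cro1, derived from a wild population, and carried no introduced allele. In Hot-Dry they were raised from the egg at 37°C and 30% relative humidity. Their relatives in Control (47 females, 33°C and 70%), Dry (48 females, 33°C and 30%) and Hot (45 females, 37°C and 70%) are used here only for comparison. RNA came from the whole body of females that the labels call reproducing and that had been mated with a male, at an age given as 8 weeks in the labels and as a later one in the paper. Sisters in Hot-Dry developed together in 1 vial until the pupal stage, and each family had another vial in each environment. The family and the vial can therefore not be told apart within Hot-Dry, and a p-value measures only the spread between sisters of a vial.

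Full sisters share both parents, so they are on average more alike than unrelated females in the alleles they carry, in maternal effects passed through the egg and in their rearing surroundings. The share of variance that lies between full-sib families of 1 environment holds all of these together, and it is a standard first step in asking whether a trait such as the expression of a gene could respond to selection. In *Tribolium* females of reproductive age, much of the RNA of the whole body comes from the fat body, which makes the yolk protein precursor vitellogenin, and from the ovary, which takes it up. In a whole-body sample fewer cells of a type and less RNA per cell cannot be told apart.

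Between 6382307 and 13690047 counts were obtained per Hot-Dry female, with a median of 9057850, at which a gene with 3 counts stands at 0.331 cpm (counts scaled to the size of the library). This limit covers only the error of counting. Of the 17078 genes in the table, 12113 exceeded 0.5 cpm in at least 5 females of the series and were tested. No pair of libraries agreed within sampling noise. Vitellogenin, the defining product of the fat body, made up 1.51% to 21.1% of counts in 40 females. It made up 0.0756% in female 1 of family 1077, 0.111% in female 4 of family 293 and 0.375% in female 4 of family 638, the 3 females below 1%, and their part in the family differences is given below as the value without them. The summed level of 14 putative ovarian specific genes, each detected, had its lowest family median, 1192 cpm, in family 1077, where it ranged from 1085 to 1227 cpm. In the other families it ranged from 1053 to 1447 cpm, with the lowest values in female 4 of family 638 (1053 cpm) and female 3 of family 710 (1128 cpm).

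To ask how many genes are expressed at different levels in different families, 1 F test per gene over the 12 families was run with edgeR's quasi-likelihood method, and genes whose p, adjusted by the Benjamini-Hochberg procedure over all genes tested, was at most 0.05 are said to differ. In Hot-Dry 6119 genes differed among families (50.5% of those tested), and 7123 had an unadjusted p under 0.05. This number rested largely on family 1077. Without that family, a comparison chosen after its values were seen, 2551 genes differed among the remaining 11 families (21.1%), and 2543 of these were among the 6119. Without the 3 females with little vitellogenin 5155 genes differed. Leaving out single females in turn gave between 5220 and 7334 genes, and the highest number came without female 3 of family 710. Leaving out all females that carry the same second number, 9 or more at a time, gave 3275, 1716, 4645 and 4440 genes. Genes with more counts passed more often, from 21.6% of genes with a mean under 1 cpm to 61.6% of genes above 100 cpm.

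**Figure D1:**
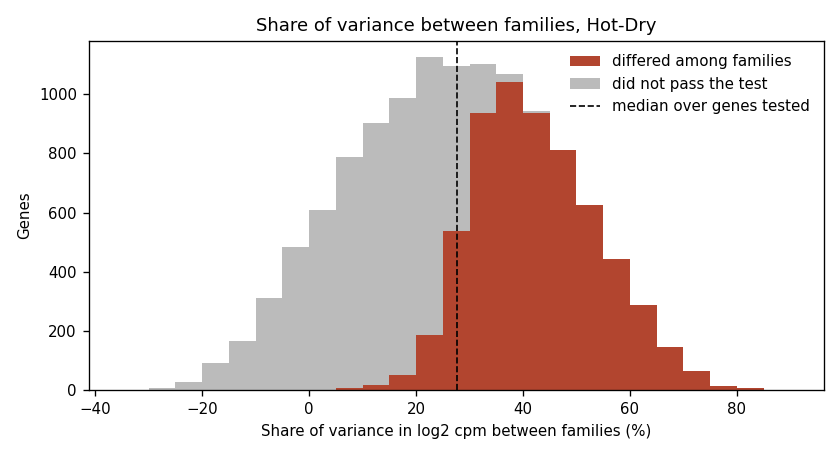
Number of genes (vertical axis) by the share of variance in log2 cpm that lay between families in Hot-Dry (horizontal axis, in percent), with genes that differed among families in red and the others stacked in grey. The dashed line is the median over the 12113 genes tested, 27.6%. Shares below 0 occur when sisters are less alike than females of different families.

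The share of variance between families was estimated for each gene as the intraclass correlation of log2 cpm, which corrects for the part of the family differences that sampling of sisters alone would give. Its median over the genes tested was 27.6%, with quartiles of 13.0% and 41.6%, and the error of the median from leaving out each family in turn was 10.8 percentage points. The median was 17.6% without family 1077. A share above 50% was found in 1589 genes (13.1%), or in 743 (6.13%) without family 1077. In 1095 genes (9.04%) the share was at or below 0. Family means of the genes that differed spanned a median of 1.04 on the log2 scale from the lowest to the highest family, which for 3245 of the 6119 was more than 1 and for 715 more than 2. Over all genes tested the median span was 0.90.

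Hot-Dry had the fewest genes with family differences of the 4 environments. The same test called 8937 genes in Control, 8942 in Dry and 8347 in Hot, with median shares of variance of 37.9%, 36.1% and 35.6%. The median variance within families was 0.107 in Hot-Dry against 0.0858 in Control, 0.0877 in Dry and 0.0999 in Hot, and the median variance between families was 0.0338 against 0.0424, 0.0402 and 0.0477. Hot-Dry therefore had both the largest spread among sisters and the smallest spread among families. The difference in these numbers between environments was not tested.

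The families did not contribute equally. When each family mean was tested against the mean of the other 11, with adjustment over all genes and families, 8799 pairs of a gene and a family passed, and family 1077 held 3831 of them. In this family 2124 genes (17.5% of those tested) were higher and 1707 (14.1%) were lower than in the other families. With 1 of its 4 females left out these numbers were 1494 to 1788 and 1122 to 1410, both lowest without female 1, the one with little vitellogenin. The next were family 710 with 800 genes, family 293 with 767, family 638 with 602, family 432 with 588 and family 103 with 552. The remaining 6 families held between 230 and 330 genes each. Without the 3 females with little vitellogenin, families 293, 638 and 1077, to which they belong, held 298, 321 and 2807 genes, while family 710 held 817. The total was 2482 pairs without family 1077. For 246 genes (2.03%) all females of 1 family lay above all other Hot-Dry females, and for 137 (1.13%) all lay below, and family 1077 was that family in most of the former and in 79 of the latter. The bars for the 12 families show how far family 1077 stood apart.

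**Figure D2:**
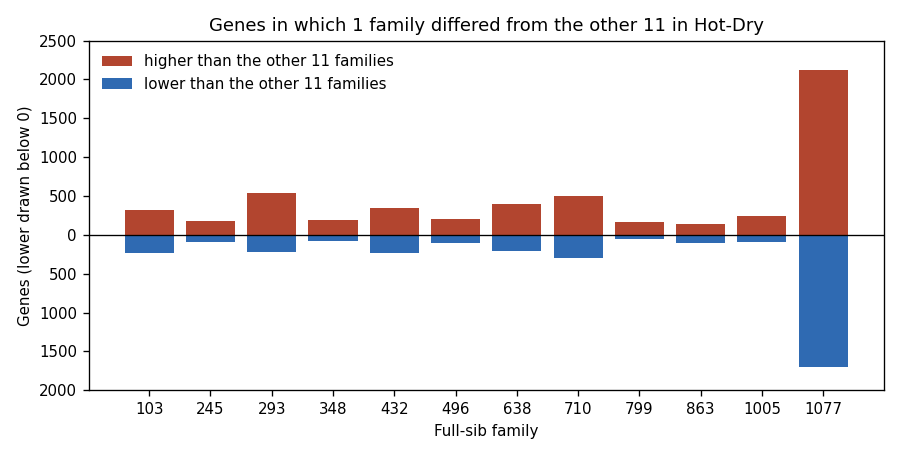
Number of genes in which 1 family was higher (red, above 0) or lower (blue, below 0) than the mean of the other 11 families in Hot-Dry, at an adjusted p of 0.05 or less over all genes and families. Family 1077 reached 2124 higher and 1707 lower genes, and no other family held more than 800 in all.

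In a principal component analysis of log2 cpm, sisters lay close to each other on most of the leading components. The first component took 16.8% of the variance, of which 69.6% lay between families (permutation p = 0.00015, one-sided, 100000 permutations of the family labels; 0.00019 adjusted over 5 components). The 4 females of family 1077 lay from -67.3 to -46.5 at one end of it, together with female 3 of family 710 at -49.2, within their range. Female 1 of family 348 was next at -36.6, and all other females lay at -17.9 or above. With components computed anew without family 1077, the share of the first between families was 43.7% (permutation p = 0.051). Computed anew from the most highly expressed genes alone, it was 36.4% (permutation p = 0.12). The second component (11.7% of the variance) held 36.8% between families (permutation p = 0.12), and without the 3 females with little vitellogenin the second component held 88.3%. The third component, with 6.40% of the variance and 75.2% of it between families, was high in families 103 (23.7 to 27.6), 496 (13.2 to 25.1) and 863 (9.8 to 18.7), and in female 4 of family 293 (28.2). The fourth component held 80.2% between families and the fifth 77.8%. For these 3 components p was 1e-05, the smallest value the permutations can give (1.7e-05 adjusted).

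**Figure D3:**
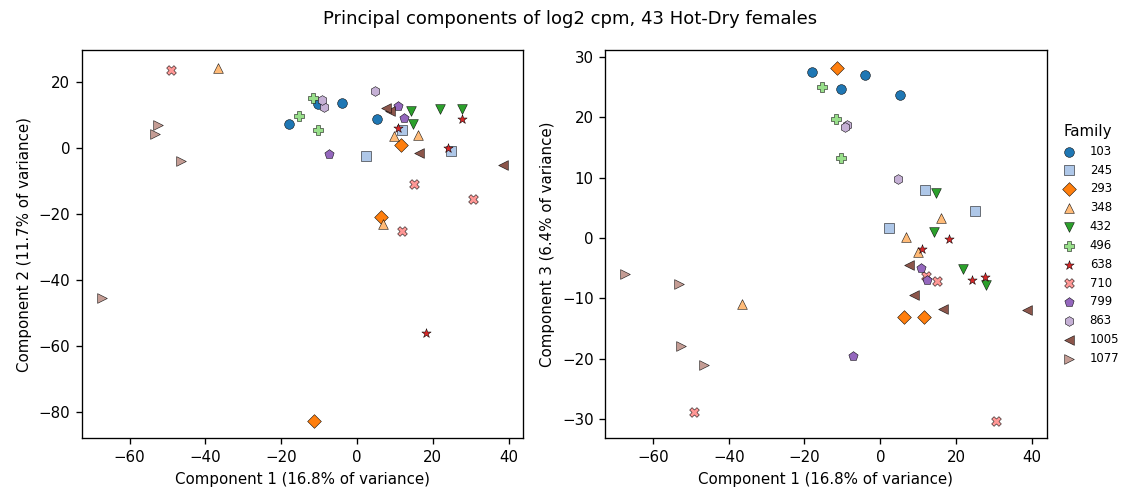
Scores of the 43 Hot-Dry females on the first and second (left) and on the first and the third (right) principal components of log2 cpm, with a colour and marker for each family and the share of variance on each axis. The females of family 1077 and female 3 of family 710 lie between -67.3 and -46.5 on the first component, and families 103, 496 and 863 lie high on the third.

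Pairs of sisters had a mean correlation of 0.252 across genes (57 pairs, log2 cpm centred on the mean of all females), and pairs from different families had -0.040 (846 pairs). The female most like a given female was a sister for 36 of the 43. Without family 1077 the mean was 0.207 for sisters and a sister was nearest for 31 of 39, so the likeness of sisters extended to the other families. The correlations run over genes, and genes are no independent replicates.

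Several of the genes with the largest share of variance between families separated whole families with little or no overlap. The sources used here give no name or role for any of the 10 genes with the largest share among those with a mean of at least 5 cpm, so they are described by their identifiers and values. TC015915 had a share of 88.6% (adjusted p = 1.231e-12, edgeR). The 4 females of family 103 had 147.6, 124.6, 139.8 and 97.8 cpm, the 3 of family 496 had 147.3, 65.9 and 190 cpm, and the 3 of family 863 had 141.2, 153.3 and 131.8 cpm. All 33 females of the other 9 families lay between 2.43 and 22.6 cpm, with a median of 8.76, so the sets did not overlap. Against the other 11 families the log2 differences were 3.01 (SE 0.22) in family 103, 3.09 (SE 0.24) in family 496 and 3.18 (SE 0.24) in family 863, with adjusted p of 4.599e-10 or less in edgeR. The same 3 families were high in every other environment, with family means of 72.7 to 145.7 cpm in Control, Dry and Hot. Family means in Hot-Dry and in the other environments had a Pearson r of 0.995 over 12 families, and the share was 90.8% without family 1077.

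A second kind of gene was low in a single family. TC002939 had the largest share of all, 89.3% (adjusted p = 2.247e-09, edgeR). Its level was 13.9, 12.2, 16.2 and 14.5 cpm in the females of family 1077, and 45.3, 44.1, 44.3 and 52.1 cpm in those of family 710. The other 35 females ranged from 41.6 to 140.3 cpm with a median of 105.4, so family 1077 lay below all females and family 710 at the lower edge. The log2 difference was -2.71 (SE 0.20, adjusted p = 1.35e-10) in family 1077 and -0.84 (SE 0.17, adjusted p = 0.00121) in family 710. In the other environments family 1077 had means of 27.0 to 55.3 cpm and family 710 of 34.7 to 47.1 cpm, both below the 59.3 cpm or more of the other 10 families. The share without family 1077 was 61.7% (adjusted p = 0.00123, edgeR).

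Family 245 lacked most of the expression of TC003178 and TC007601. TC003178 was at 3.33, 3.48 and 2.58 cpm in its 3 females and between 7.37 and 185.8 cpm, with a median of 65.0, in the other 40. The log2 difference of family 245 was -4.29 (SE 0.53, adjusted p = 2.253e-06, edgeR). Families 710 and 1077 were low as well, with means of 17.4 ± 8.13 cpm and 15.7 ± 4.06 cpm (SD, n = 4 each) and log2 differences of -1.61 and -1.76 (adjusted p = 0.00367 and 0.00165, edgeR). TC007601 was at 4.85, 14.4 and 3.99 cpm in family 245, against 39.4 to 1047 cpm, with a median of 384.4, in the other 40 females, a log2 difference of -5.76 (SE 0.82, adjusted p = 1.848e-05, edgeR). Family 245 was equally low elsewhere. Its means in Control, Dry and Hot were 3.31, 4.81 and 3.08 cpm for TC003178 and 7.07, 3.93 and 7.20 cpm for TC007601. The share of variance was 83.7% for TC003178 and 75.0% for TC007601, with a family mean correlation with the other environments of 0.96 and 0.93 over 12 families. For TC007601 the test of Hot-Dry against the other environments nevertheless passed (adjusted p = 0.031, edgeR), and family 710 had a mean of 353.7 cpm in Hot-Dry against 27.0 to 146 cpm elsewhere. In family 710 the values of TC007601 spanned 39.4 to 1047 cpm among sisters, and the highest was female 3.

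TC016210 and TC007406 separated a family in Hot-Dry and Hot more than in the cooler environments. TC016210 was at 1.43, 1.83 and 2.95 cpm in the females of family 293, and the other 40 females had 11.8 to 51.1 cpm with a median of 28.8. The log2 difference was -3.61 (SE 0.40, adjusted p = 5.852e-07, edgeR). The mean of family 293 was 2.27 cpm in Hot, 10.6 cpm in Control and 8.91 cpm in Dry, but the test of Hot-Dry against the other environments did not pass for this gene (adjusted p = 0.060, edgeR). TC007406, a highly expressed gene, was at 1792, 1778, 1685 and 1751 cpm in family 1077 and at 583.1 to 1140 cpm, with a median of 777.2, in the other 39 females. Family 1077 was higher by 1.10 on the log2 scale (SE 0.097, adjusted p = 5.522e-09, edgeR). In this family the mean was 1499 cpm in Hot, 885.8 cpm in Control and 984.1 cpm in Dry, and for TC007406 the family differences in Hot-Dry differed from those in the other environments (adjusted p = 6.268e-05, edgeR).

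The other 5 of the 10 genes with the largest share, TC011841, TC005750, TC006402, TC011073 and TC015970, had shares of 81.3% to 84.5%. TC005750 spanned 3.39 between its lowest and highest family mean on the log2 scale, and the other 4 spanned 0.55 to 0.93. Large shares thus occurred with small differences as well as with large ones. Shares above 75% were found in 24 genes, of which 15 passed the test of Hot-Dry against the other environments. Of all genes tested 28.3% passed it, and of the 6119 genes that differed among families 44.1% did. The mean level was at least 5 cpm in 20 of the 24.

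**Figure D4:**
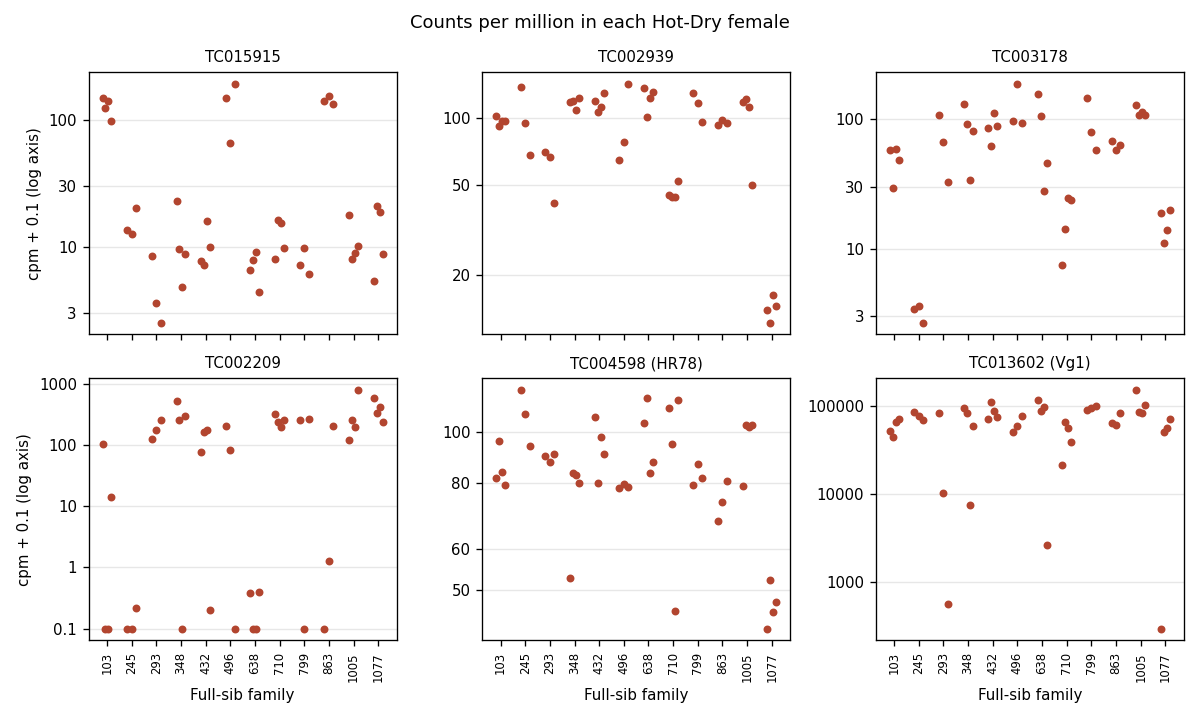
Expression of 6 genes in each Hot-Dry female (points), as cpm plus 0.1 on a log axis, by family. TC015915 is high in families 103, 496 and 863, TC002939 lowest in 1077, TC003178 lowest in 245, and TC002209 near 0 in all females of 245 and 638, while HR78 is low in 1077 and Vg1 differs between sisters.

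Other genes were present or absent in single females, so that families differed in the number of sisters that expressed them. TC002209 had the widest range of family means, 10.6 on the log2 scale, and a share of 43.9% (adjusted p = 0.00836, edgeR). It was at 0.294 cpm or less, under the floor of 3 counts, in the 3 females of family 245 and the 4 of family 638, and the means of these families in the other environments were 0.113 cpm or less. In family 1077 it was at 589.4, 341.5, 413.8 and 239.7 cpm, and in family 710 at 320.9, 239.9, 198.0 and 257.3 cpm. Families 103, 348, 432, 496, 799 and 863 each held females near 0 beside females above 100 cpm. In family 348, for example, the females had 534.3, 259.5, 0 and 295.7 cpm. Under limma-voom, which gives the spread of such a gene another weight, the adjusted p for TC002209 did not pass 0.05. TC006157 and TC006158, which carry consecutive identifiers, had family mean ranges of 9.05 and 8.68 on the log2 scale and were also split between sisters. TC006158 was at 138.1, 84.2, 97.1 and 0.0946 cpm in family 1077 and at 0 in all 3 females of family 863. Both of these genes also missed the threshold under limma-voom.

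The gene with the largest difference of each family was often of this kind, with values that spread widely among sisters, and none of these genes has a name in the sources used here. TC015266 was higher in family 1077, with 97.2, 27.5, 48.8 and 29.0 cpm, than in the other 39 females, which had 0 to 51.3 cpm with a median of 1.25 (log2 difference 4.28, SE 0.55, adjusted p = 4.723e-06, edgeR). TC007316 was at 213.4, 427.7 and 506.8 cpm in family 245 and at 298.7, 114.7, 155.2 and 562.9 cpm in family 432, against a median of 5.07 cpm in the other 36 females. Both families were high as a whole, while in family 638 a single female with little vitellogenin carried 527.6 cpm and her sisters had 21.5, 1.78 and 2.38 cpm. In TC010594 family 103 was higher (72.7, 31.4, 30.4 and 15.1 cpm, log2 difference 3.72, SE 0.41, adjusted p = 5.808e-07, edgeR). The other 39 females had 0.144 to 43.1 cpm, with a median of 2.06. TC014977 was lower in all 4 females of family 348, at 0.730, 1.59, 0.478 and 1.27 cpm, than the median of 30.4 cpm over all females (log2 difference -5.20, SE 1.25, adjusted p = 0.0079, edgeR), but its F test over families passed only narrowly (adjusted p = 0.049) and did not pass under limma-voom. TC002843, a gene listed with peptidase activity, was highest in family 293, with 46.2, 111.4 and 0.768 cpm, and TC000516 in family 496, with 546, 70.6 and 19.0 cpm. In both, sisters differed by far more than most families did.

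The expression differences of families carried over to other environments in part. In the females of Control, Dry and Hot together, which the Hot-Dry test did not use and which grew in other vials, 11050 genes (91.2%) differed among families. Of the 6119 genes of Hot-Dry, 5970 (97.6%) were among them, against 91.2% of all genes. The 5970 are 54.0% of the 11050, and 149 genes passed in Hot-Dry alone. The test in the other environments took sisters of a vial as separate females. The overlap was smaller with the counts of sisters there summed, as given below. For each gene the family means in Hot-Dry were correlated with the family means over the other environments. The median r over 12 families was 0.56 for the genes that differed in Hot-Dry and 0.50 for all genes, and r was above 0 in 5979 (97.7%) and 11353 (93.7%). Against single environments the median r of the genes that differed was 0.33 for Control, 0.37 for Dry and 0.64 for Hot. Without family 1077 these were 0.49, 0.41 and 0.51, which brought Hot and Control close to each other.

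A direct test of whether a family's deviation in Hot-Dry differed from the mean of its deviations in the other 3 environments called 3423 genes (28.3%), of which 2700 were among the 6119 (44.1% of them), and 5247 had an unadjusted p under 0.05. Without family 1077 the number was 1492 (12.3%), and without the 3 females with little vitellogenin it was 2335. Family 1077 differed from its own deviations elsewhere in 1180 genes, family 348 in 649, family 710 in 372, family 432 in 349 and family 638 in 202. The other 7 families had 110 or fewer such genes.

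TC009126, a gene for which the sources used here give no name, had the smallest p in this test (adjusted p = 4.224e-10, edgeR). In Hot-Dry its level was 39.9, 24.5, 25.5 and 105.9 cpm in family 638. It was 45, 14.5, 48.3 and 95.6 cpm in family 710, and 27.8, 39.4, 27.4 and 88.0 cpm in family 1005. The 31 females of the other families ranged from 3.34 to 30.2 cpm with a median of 9.48, and the highest of them, female 1 of family 1077, lay above the lowest females of all 3 families. The log2 differences were 1.90 (SE 0.33), 1.96 (SE 0.32) and 1.79 (SE 0.33) in families 638, 710 and 1005, with adjusted p of 0.000495 or less in edgeR. In Control, Dry and Hot these 3 families had means of 2.52 to 10.5 cpm. In Hot the gene was highest in other families, with means of 39.6 cpm in family 432, 29.8 cpm in 1077, 26.7 cpm in 863 and 25.3 cpm in 245. In Hot-Dry none of these families passed against the other 11. Their log2 differences there were -1.01, 0.02, -1.07 and -0.44 (adjusted p of 0.1785 or more, edgeR). Over the 12 families the means in Hot-Dry and in the other environments had an r of -0.56.

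TC005388, listed with anion and secondary active transmembrane transporter activity, showed the same change of order (adjusted p = 1.043e-07, edgeR). It was at 95.7, 91.7, 51.6 and 94.3 cpm in family 638 and at 76.5, 73.6, 127.0 and 68.5 cpm in family 1005. The other 35 females lay between 19.2 and 96.4 cpm with a median of 40.2, and families 638 and 1005 were higher than the other families by 0.90 and 0.96 on the log2 scale (adjusted p = 0.00839 and 0.00441, edgeR). In Hot their means were 27.0 and 27.5 cpm, while families 863, 432 and 245 had 70.5, 66.9 and 60.2 cpm there. TC006845 was the next gene in this test (adjusted p = 1.043e-07). In Hot-Dry families 348 and 432 were higher than the other families, by 0.86 and 0.62 on the log2 scale (adjusted p = 0.000995 and 0.0208, edgeR). The 12 females of families 638, 710 and 1005, which were high in TC009126, had 16.5 to 39.9 cpm with a median of 24.2. The other 31 had 22.6 to 83.1 cpm with a median of 44.1. Against the other 11 families only family 1005 of these 3 was lower (log2 difference -0.86, adjusted p = 0.00509, edgeR), while families 638 and 710 did not pass (-0.56 and -0.58, adjusted p = 0.079 and 0.064). In TC001793 the difference lay partly between sisters. The females of family 1077 had 263.2, 77.8, 5.67 and 9.65 cpm, and this family had means of 2.34 to 5.90 cpm elsewhere (adjusted p of the test against the other environments 1.043e-07, edgeR). Family 638 was higher as well, with 16.2, 38.5, 61.7 and 33.8 cpm (log2 difference 1.93, adjusted p = 0.0055, edgeR). Its means elsewhere were 8.46 to 25.6 cpm. Without family 1077 the F test over families still passed for TC001793 (adjusted p = 0.000503, edgeR).

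**Figure D5:**
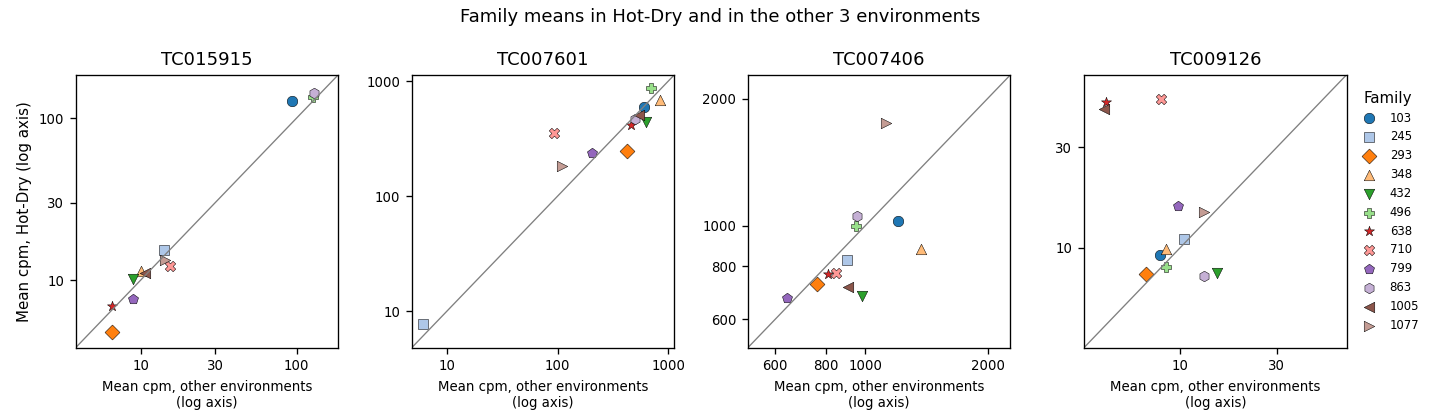
Mean cpm of each family in Hot-Dry (vertical, log axis) against its mean over Control, Dry and Hot (horizontal, log axis) for 4 genes, with the line of equality in grey. In TC015915 the high and the low families are the same on both axes. In TC007601 family 245 is lowest on both axes while family 710 lies above the line, in TC007406 family 1077 lies above it, and in TC009126 families 638, 710 and 1005 lie far above it.

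Family 1077, which carried so much of the Hot-Dry result, stood apart in Hot as well and less so in the cooler environments. Against the other 11 families it differed in 4817 of the 12113 genes tested in Hot, 1102 in Control and 946 in Dry. Of its 3831 genes of Hot-Dry, 2736 were called in Hot, a larger share than of all genes, with the same direction in 2733. In Dry 420 were called, a share somewhat above that of all genes, and 411 had the same direction. In Control 355 were called, a share near that of all genes. Of these 111 had the same direction, so most went the opposite way. The correlation across genes of its differences in Hot-Dry with those in Hot, Dry and Control was 0.73, 0.46 and 0.068. Family 348 had the most genes in Control (4690) and Dry (4829) and only 273 in Hot-Dry, and family 103 had 3816 in Control and 552 in Hot-Dry. Which family stood apart therefore differed among environments.

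Among genes that the study assigned to reproduction, those of the ecdysone pathway were at the low end in family 1077. 20-hydroxyecdysone (20E) is the insect steroid hormone; cytochrome P450 enzymes make it, and the receptor EcR with its partner USP passes its signal to a cascade of nuclear receptors. Of 14 tested genes of 20E biosynthesis and action, 9 differed among families (64.3%, against 50.5% of all genes), with a median share of 28.0% against 27.6%. Only 1 of the 14, HR4, differed without family 1077 (adjusted p = 0.028, edgeR), where 21.1% of all genes did. In family 1077 7 of the 14 were lower and none was higher, where 14.1% and 17.5% of all genes were. The median log2 difference was -0.60, against 0.033 over all genes tested. Without the 3 females with little vitellogenin 6 were lower and none was higher, and under the other normalizations 7 or 8 were lower.

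HR78 (TC004598), a nuclear receptor, had the largest share of the list, 55.4% (adjusted p = 0.00051, edgeR). The females of family 1077 had 42.2, 52.2, 45.3 and 47.5 cpm, and the other 39 had 45.6 to 119.7 cpm with a median of 86.8. The only females outside family 1077 in its range were female 3 of family 710 (45.6 cpm) and, just above it, female 1 of family 348 (52.6 cpm). The log2 difference of family 1077 was -0.91 (SE 0.14, adjusted p = 4.305e-05). The other 6 lower genes were EcR (TC012112, -0.74), USP (TC014027, -0.44), HR39 (TC014986, -0.48), the nuclear receptor FTZ-F1 (TC002550, -0.52), and the P450 enzymes Shade (TC011231, -0.68), which makes 20E from ecdysone, and Shadow (TC014274, -0.84). In Hot the log2 differences of these 7 genes in family 1077 were between -0.75 and -0.20, and in Control between -0.25 and 0.18. The other 7 genes of the list, the receptors HR4, E78 and HR38 and the enzymes Phantom, Disembodied, Spookier and Spookier-related, did not pass in family 1077, at log2 differences of -1.01 to -0.23. The summed ovarian level, which was lowest in the same family, is given above, and its part in these differences was not tested.

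In the insulin and TOR pathways (IIS-TOR), which link nutrition to growth and egg production, 7 of 13 genes differed among families (53.8%, against 50.5% of all genes) and 2 did so without family 1077 (against 21.1% of all genes), which is near the background. Family 1077 was lower in 4 and higher in 1, where 14.1% and 17.5% of all genes were. TOR (TC009906), the kinase at the centre of the pathway, was at 27.7, 31.3, 23.2 and 24.9 cpm in family 1077 and at 22.8 to 61.9 cpm, with a median of 43.6, in the other 39 females. The log2 difference was -0.67 (SE 0.15, adjusted p = 0.00301, edgeR), and the share was 50.4%. RHEB2 (TC014613), an activator of TOR, and S6K2 (TC001074), a kinase that TOR phosphorylates, were lower in family 1077 by log2 differences of -0.40 and -0.56 (adjusted p = 0.0234 and 0.00226, edgeR).

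Of 7 juvenile hormone (JH) genes, 3 differed among families (42.9%, against 50.5% of all genes). In family 1077 their median log2 difference was -0.65, against -0.60 for the 20E genes. There 1 of the 7 was lower, none was higher, and 3 lay above the other families without passing. Met (TC003908), the JH receptor, had a share of 59.5% (adjusted p = 0.000111, edgeR), which was 53.6% without family 1077 (adjusted p = 0.00178). Families 496, 863 and 103 were higher by 0.70, 0.62 and 0.51 on the log2 scale, with means of 133.9, 127.5 and 118.9 cpm, and family 1077 was lower, with 41.7, 49.1, 60.8 and 69.7 cpm and a log2 difference of -0.69 (SE 0.16, adjusted p = 0.00662). The same families, 496, 863 and 103, were those with high TC015915. The family means of Met in Hot-Dry and elsewhere had an r of 0.85, and the test against the other environments did not pass (adjusted p = 0.26). The enzymes JHAMT (TC008471 and TC008469), which complete JH synthesis, were near the detection limit in some females and had shares of 29.0% and 32.7%.

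Most genes of vitellogenin and its receptors had shares of variance between families in Hot-Dry below the median of all genes. The median share of the list was 9.63%, against 27.6% over all genes tested. Of 6, only VgR2 (TC008425) differed among families (16.7% of the list against 50.5% of all genes). None did without family 1077, where 21.1% of all genes did. In the other environments 5 of the 6 differed among families, against 91.2% of all genes. In the test of Hot-Dry against the other environments 4 of the 6 passed, against 28.3% of all genes. The levels of VgR2 in family 1077 were 138.9, 156.3, 176.9 and 197.9 cpm. The other 39 females had 36.9 to 181.6 cpm with a median of 77.1, and the only ones above 146.2 cpm were female 1 of family 348 (181.6 cpm) and female 3 of family 710 (178.8 cpm), the same females that lay next to family 1077 in HR78 and on the first component. The log2 difference of family 1077 was 1.01 (SE 0.22, adjusted p = 0.00283, edgeR). Vg1 (TC013602), the most abundant yolk protein gene, spanned 295.8 to 152081 cpm over all females. Within family 1077 it was at 295.8, 50534, 56998 and 70914 cpm, and within family 293 at 83864, 10413 and 558.3 cpm. The shares between families in Hot-Dry were 6.17% for Vg1 and 4.35% for Vg2 (TC010839), and neither differed among families. In Control, Dry and Hot the shares were 31.1%, 73.3% and 6.26% for Vg1 and 18.4%, 62.4% and -1.03% for Vg2. The test of Hot-Dry against the other environments passed for neither (adjusted p = 0.51 for both, edgeR). The most highly expressed gene beside these that missed the threshold was TC003326, at 7766 to 32138 cpm (adjusted p = 0.062, edgeR), which passed with DESeq2 and limma-voom.

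Of 14 putative ovarian specific genes, 8 differed among families (57.1%, against 50.5% of all genes), and 1 did without family 1077 (against 21.1% of all genes). Family 1077 was higher in 2 and lower in 3 of them, where 17.5% and 14.1% of all genes were. Mago nashi (TC016112), a component of the complex that marks spliced mRNA, was at 101.9, 99.9, 106.6 and 82.0 cpm in family 1077. Its highest value, 144.9 cpm, was in female 3 of family 710, whose sisters had 54.2, 59.3 and 60.0 cpm. This gene did not pass without the 3 females with little vitellogenin. Both receptor genes on the list of other nuclear receptors, SVP (TC001722) and E75 (TC012440), differed among families. E75 missed the threshold with upper quartile normalization, with limma-voom and without the 3 females with little vitellogenin.

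Genes of the tricarboxylic acid (TCA) cycle, the mitochondrial pathway that oxidizes acetyl groups, differed among families with little dependence on family 1077. Of 11 genes, 10 differed (90.9% against 50.5% of all genes), with a median share of 45.7%, and 9 of the 11 did so without family 1077, with a median share of 47.8%, where 21.1% of all genes did. The list came from terms of the study's enrichment tables and was chosen with values of these data known. All 11 also differed in the other environments, where 91.2% of all genes did. In the test of Hot-Dry against the other environments 7 of the 11 passed, against 28.3% of all genes. The differences were small, and their direction was shared over most of the list in some families and not in others. In family 103, 10 of the 11 genes lay below the other families and 5 were lower in the test, with a median log2 difference of -0.31, and in family 496 all 11 lay below and 1 was lower (median -0.17). In family 245, 8 lay below and 2 were lower (median -0.21). In family 638 10 lay above and 3 were higher (median 0.14), and in family 799 9 lay above and 3 were higher (median 0.17). In family 348, 10 lay above and 1 was higher (median 0.10), and in family 710, 8 lay above and 1 was higher (median 0.14). In families 293, 432, 863, 1005 and 1077 between 4 and 6 of the 11 lay above, and the medians ran from -0.066 to 0.16.

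TC013056, with the largest share of the TCA list (62.9%, adjusted p = 0.000144, edgeR), was at 246.3, 236.4, 232.2 and 231.2 cpm in family 638. It was at 133.1, 148.7, 151.4 and 127.4 cpm in family 103 and at 143.1, 123.0 and 128.4 cpm in family 496. Family 638 did not overlap with families 103 and 496, but the 39 females outside family 638 ranged from 122.1 to 271.7 cpm and so reached above it. The log2 differences from the other families were 0.46 (SE 0.099) in family 638, -0.37 (SE 0.11) in family 103 and -0.47 (SE 0.12) in family 496, with adjusted p of 0.00294, 0.0330 and 0.0165 in edgeR. Families 710 and 1005 were also higher (0.33 and 0.35) and family 1077 was also lower (-0.35), with adjusted p of 0.0447, 0.0275 and 0.0449. TC014166 was at 92.2, 77.7, 105.3 and 109.7 cpm in family 103, against 94.8 to 197.6 cpm with a median of 127.0 in the other 39 females. Family 103 was lower by a log2 difference of -0.42 (SE 0.096, adjusted p = 0.00493, edgeR). Its share was 62.7%, and 66.6% without family 1077.

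Of 38 genes of chitin metabolism, the polymer of the cuticle and gut lining, 18 differed among families (47.4%, against 50.5% of all genes) and 8 did without family 1077 (against 21.1%), so the list was close to the background. Without the 3 females with little vitellogenin 23 differed, where 42.6% of all genes did. Family 1077 was lower in 6 and higher in none, where 14.1% and 17.5% of all genes were. The chitinase TC013917 was higher in family 293 by 1.34 on the log2 scale (adjusted p = 6.364e-05, edgeR), but the values of its sisters were 1127, 1037 and 3615 cpm, and the highest belonged to the female with little vitellogenin. TC003275, which is listed with chitin binding, was at 711.4, 734.9, 373.5 and 518.2 cpm in family 1077 and at 2526, 2942, 1043 and 3800 cpm in family 710.

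The remaining lists were taken from the same enrichment tables, and their counts are read against the 50.5% of all genes that differed, the 21.1% that did without family 1077, and the 17.5% and 14.1% that were higher and lower in that family. Of 44 serine-type endopeptidase genes, which cut proteins and include digestive enzymes, 19 differed, and 10 without family 1077. Of 51 genes of hydrolases that act on O-glycosyl bonds 23 differed, and 15 without family 1077. In this list 32 differed without the 3 females with little vitellogenin, where 42.6% of all genes did, and 30 under limma-voom, where 50.7% did, so its place relative to the background changed with the setting. Of 38 serine/threonine kinase genes 18 differed, and 3 without family 1077, with 10 lower and 4 higher in that family. Of 24 genes of potassium transport 9 differed and of 19 of the postsynaptic membrane 8, and family 1077 was higher in 3 and 5 of these and lower in 1 and 0.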

How the data were processed

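The deposited table holds raw read counts per gene for each whole female. The authors sequenced libraries of the LEXOGEN mRNA-Seq kit, mapped reads to the Tcas3 assembly with STAR 2.5 and ran featureCounts on the alignments. How strand and multiply mapped reads were handled is not given in the sources used here, which leaves values of paralogs and overlapping genes uncertain. The sequencing run of each female was not given either, so no comparison within runs was made.

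Only the 43 Hot-Dry columns entered the family tests. Factors were TMM factors over all females (0.877 to 1.29 in Hot-Dry), and the tests covered genes that exceeded 0.5 cpm in 5 females or more, in R 4.3.3 with edgeR 4.0.16 (quasi-likelihood F test, 11 contrasts, Benjamini-Hochberg adjustment, threshold 0.05). The F statistic of each family against the other 11 gave the standard errors. The intraclass correlation and the components used log2 cpm with a prior count of 2. The test of Hot-Dry against the other environments used all females. limma 3.58.1 and DESeq2 1.42.0 served as alternatives. The procedures were tested on simulated data.

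Named genes were those with the largest share of variance, the widest range of family means, the largest difference of each family or the smallest p of Hot-Dry against the other environments, where the mean was 5 cpm or more, and up to 3 per list by p, with Vg1 and Vg2. Lists came from the study's supplement. Lists by gene name could not be applied, since the reference table did not match the identifiers. The members and lists were chosen with earlier results of these data known. Family 1077 and the 3 females with little vitellogenin were left out after their values were seen. Second numbers of the names do not pair females of different families: their deviations from the family mean correlated at 0.0057 for the same number and -0.0015 for different numbers.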

Additional observations from a re-analysis of the deposited data

Results flagged for a closer look

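Within the families of 4 females, 35 groups of library measures and 77 groups of gene levels were examined for a single female far from her sisters, which chance finds in about 1 in 20 groups. Such a female was found in 4 and 9 of them. Female 2 of family 1077 had 12194575 counts (sisters 9436488 to 9644207). The summed ovarian level was 1267 cpm in female 1 of family 348 (sisters 1326 to 1332 cpm). On the second component female 1 of family 432 lay at 7.2 (sisters 11.3 to 12) and female 4 of family 638, with little vitellogenin, at -56.1 (sisters 0 to 8.7).

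Female 1 of family 348 was apart in 3 genes: TC016210 (30.8 cpm, sisters 11.8 to 14.1), HR78 (TC004598, 52.6 cpm, sisters 79.7 to 83.3) and VgR2 (TC008425, 181.6 cpm, sisters 67.3 to 82.0). VgR2 was also apart in female 3 of family 710 (178.8 cpm, sisters 40.8 to 63.3) and female 2 of family 103 (77.1 cpm, sisters 110.1 to 115.1), and HR78 in female 1 of family 1005 (78.7 cpm, sisters 102 to 103). TC002939 was apart in female 4 of family 710 (52.1 cpm, sisters 44.1 to 45.3) and female 4 of family 1005 (50.3 cpm, sisters 111.2 to 121.2), and TC002209 in female 1 of family 103 (105.6 cpm, sisters 0 to 14.1).

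Family differences in Hot-Dry differed from those in the other environments in 3423 genes. The smallest adjusted p in edgeR's test of this difference were 4.224e-10 for TC009126 and 1.043e-07 for each of TC005388, TC006845 and TC001793. No explanation of these values was tested.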

How the results depend on the processing

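At an adjusted p of 0.01, 3518 genes differed among families, 4052 gene and family pairs passed, family 1077 was higher in 1414 and lower in 1037 genes, 1319 genes differed between Hot-Dry and the other environments, and 3393 passed both in Hot-Dry and in the other environments. Without family 1077, at the threshold of 0.05, these were 2551 genes, 2482 pairs, 1492 and 2471 genes, and the first component held 43.74% between families (permutation p = 0.051). With the most highly expressed genes alone it held 36.38%. With single females left out in turn the number of genes ranged from 5220 to 7334, the median share from 25.2% to 33.3%, the pairs from 7022 to 12825, and the share of the first component from 58.7% to 80.0%. With single females of family 1077 left out, the genes higher and lower in that family ranged from 1494 to 1788 and from 1122 to 1410. Leaving out all females of 1 second number gave 1716 to 4645 genes, median shares of 23.2% to 31.5% and first component shares of 66.5% to 73.6%. TC007316 in family 638 (log2 difference 3.01) ranged from -1.01 to 3.42 with 1 sister left out, and the lowest value was without female 4, one of the females with little vitellogenin. TC006158 in family 710 (4.86) ranged from -0.31, without female 4, to 5.27. The cause was not tested in any of these.

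With the second number as a replicate block 5844 genes and 8314 pairs passed, and the block took no count past 1.5 times its value. DESeq2 called 7159 genes, limma-voom 6142, and fits with a covariate for library size 5414, or for read quality 5674. With counts summed over sisters in each of the other environments, 4528 genes passed both there and in Hot-Dry, against 5970 without summing. Levels near the floor of 3 counts limit the genes under 1 cpm.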

Other observations

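By a rule chosen after seeing the data, 18 genes were at 2 separate levels in Hot-Dry, with at least 4 females at 0.35 cpm or less, at least 4 at 2 cpm or more and at most 2 between. Of these 18, 12 differed among families, where 50.5% of all genes tested did. All 18 had at least 1 family with sisters at both levels, and 9 had a family wholly at the low and another wholly at the high level. The median correlation of their family means with those of the other environments was 0.80 over 12 families, against 0.50 for all genes tested. In TC006068 the 3 females of family 245 had 0, 0 and 0.117 cpm, and the females of 9 families had 3.35 cpm or more, while families 638 (0, 0, 3.57 and 2.5 cpm) and 1005 (3.45, 2.64, 0.104 and 0 cpm) were split. In TC011730 all females of families 103, 496, 638 and 799 were at 0.272 cpm or less, families 293, 710 and 1077 were at 16.9 cpm or more, and the other 5 were split. In TC000940 family 799 had a mean of 12.2 cpm, and all females of 8 families were at the low level.

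Some females outside family 1077 deviated from their sisters in the direction of that family. The deviations of female 1 of family 348 and of female 3 of family 710 from their sisters had correlations across genes of 0.466 and 0.449 with the differences of family 1077 from the other families. The next highest of the 39 females had 0.289, the median was -0.012 and the lowest -0.329. The genes are not independent replicates, and the values of these females are part of the mean to which family 1077 was compared.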
